A study of Mus musculus with 50 samples.

Results

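Among mouse mammary gland (MG) tumors, those with the most RNA of a milk protein, beta-casein, were set against those with the least. The tumors were ordered by the level of Csn2, the gene of beta-casein, and the 12 highest (Csn2-high) were compared with the 12 lowest (Csn2-low), irrespective of treatment. These were 24 of the 50 tumors measured. Of the others, 25 lay between the groups, and 1, insulin_13, was left out before the ranking. Csn2 therefore chose the groups and carries no test here, and the other genes with a mean of at least 0.5 RPKM (reads per kilobase of gene, scaled to the size of the library in M reads) were tested.

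All 50 tumors came from female mice of the genotype p53R270H/+WAPCre, 8 weeks old when they entered the experiment. One p53 allele carries the R270H change. It is switched on by a Cre recombinase under the promoter of whey acidic protein (Wap), a milk protein made by secretory mammary epithelium. The Csn2-high and the Csn2-low tumors share this genotype, and the cell that each tumor arose from was not tested. The mice were injected under the skin every other day with vehicle, insulin, the insulin analogues glargine or X10, or insulin-like growth factor 1 (IGF1), with 10 tumors for each of these 5 treatments. A tumor was taken at 1 cm3, 24 h after the last injection, and its polyadenylated RNA was sequenced in 1 library. The tumors had been picked by the study for a morphology like that of an epithelial to mesenchymal transition (EMT) and for a latency near the median of their treatment, so neither group is a random draw of MG tumors. Tumors named vehicle here are titled as untreated in the labels. The age at collection and whether any of these 50 tumors share a mouse are not given in the sources used here, and the p-values measure the spread between tumors.

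Milk is made by the alveolar cells of the lactating mammary gland. Prolactin binds its receptor, Prlr, and activates the transcription factor STAT5, which together with the glucocorticoid receptor and the alveolar factor Elf5 drives the casein genes. Most casein genes lie side by side in a cluster on mouse chromosome 5. Caseins carry calcium and phosphate as micelles, alpha-lactalbumin (Lalba) is the regulatory subunit of lactose synthase, and milk fat is secreted as droplets wrapped in membrane.

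The promoter sequences of 4 genes on which the results turn are shown, as examples of the milk genes that were high in the same tumors. Each line gives the 250 bases before the RefSeq start site in the GRCm38.p6 assembly, and capitals mark matches to TTCNNNGAA, the core letters of a STAT5 site, which read alike on both strands.
Csn2, chr5:87699426-87699675, minus strand: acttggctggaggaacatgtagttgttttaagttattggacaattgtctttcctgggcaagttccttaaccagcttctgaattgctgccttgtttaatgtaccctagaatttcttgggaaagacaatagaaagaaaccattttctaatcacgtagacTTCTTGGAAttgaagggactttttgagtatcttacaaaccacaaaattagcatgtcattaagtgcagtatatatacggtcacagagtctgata
Csn1s1, chr5:87665958-87666207, plus strand: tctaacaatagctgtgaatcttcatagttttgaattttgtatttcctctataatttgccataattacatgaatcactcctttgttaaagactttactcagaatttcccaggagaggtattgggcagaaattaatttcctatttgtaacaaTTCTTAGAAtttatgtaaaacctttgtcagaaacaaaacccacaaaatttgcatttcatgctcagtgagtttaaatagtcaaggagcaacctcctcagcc
Csn1s2a, chr5:87774200-87774449, plus strand: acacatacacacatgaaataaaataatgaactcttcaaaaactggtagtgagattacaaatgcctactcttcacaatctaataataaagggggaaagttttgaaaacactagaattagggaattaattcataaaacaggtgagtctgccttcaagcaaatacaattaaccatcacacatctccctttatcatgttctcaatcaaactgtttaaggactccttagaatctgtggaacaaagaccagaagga
Lalba, chr15:98482684-98482933, minus strand: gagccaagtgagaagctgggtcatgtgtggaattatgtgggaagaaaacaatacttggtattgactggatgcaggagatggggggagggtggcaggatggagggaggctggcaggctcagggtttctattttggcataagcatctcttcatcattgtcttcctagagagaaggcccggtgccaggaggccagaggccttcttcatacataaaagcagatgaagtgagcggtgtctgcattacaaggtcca
The Csn2 window held TTCTTGGAA from position -93 and the Csn1s1 window TTCTTAGAA from position -100, counted back from the RefSeq start site. The Csn1s2a and Lalba windows held no match, which says only that these letters are not in these 250 bases. Windows of Elf5 (2), Prlr (3), Wap and Wfdc18 were searched too and are not printed: 1 of the Prlr windows held a match and the others held none, so that 3 of the 11 windows of 8 genes did. Of all 32851 RefSeq promoter windows of this length, 2306, or 7.02%, held at least 1 match. The table used here has no entry for Csn3.

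Csn2 divided the tumors unevenly. In the 12 Csn2-high tumors it ran from 10.1 to 316 RPKM with a median of 30.7, in the 25 tumors between from 0.071 to 9.50 with a median of 3.52, and in the 12 Csn2-low tumors from 0 to 0.063 with a median of 0.0405. In reads these levels were worth 443 to 9391 in the Csn2-high tumors and 0 to 3 in the Csn2-low tumors, with libraries of 26.5 to 48.3 M reads and 34.1 to 49.1 M reads. The tumors next to the cut were IGF1_136 at 9.50 RPKM, just outside the Csn2-high group, and glargine_69 at 10.1, just inside it. At the lower cut, IGF1_147 and vehicle_174 stood at 0.063 RPKM and IGF1_160 and insulin_26 at 0.071, all 4 worth 3 reads, so the tumors on either side of that cut cannot be told apart. Of all 50 tumors, 19 were under 1 RPKM, the highest of them at 0.411, and the next tumor stood at 2.04. The tumor left out, insulin_13, stood at 0.080 and would have fallen between the groups.

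**Figure D1:**
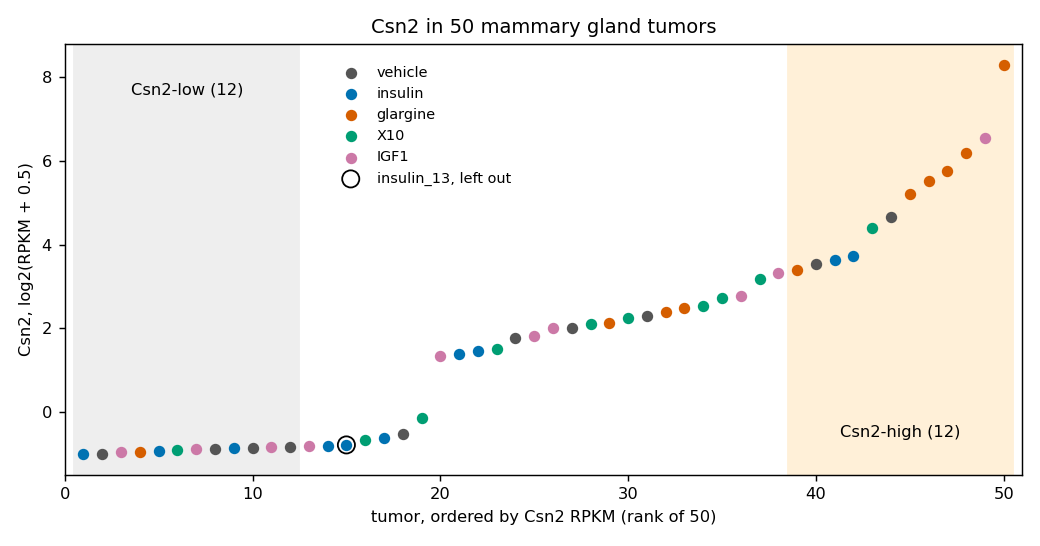
Csn2 in each of the 50 tumors, as log2(RPKM + 0.5), against the rank of the tumor, coloured by treatment, with the 12 Csn2-low and 12 Csn2-high tumors shaded and insulin_13 circled. A step separates the 19 tumors under 1 RPKM from the rest, and 6 of the 12 Csn2-high tumors are from glargine-treated mice.

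The treatments were spread unevenly over the groups. Glargine gave 6 of the 12 Csn2-high tumors and 1 of the Csn2-low tumors. Vehicle gave 2 and 4, insulin 2 and 3, IGF1 1 and 3, and X10 1 and 1. Treatment and Csn2 group are thus partly confounded, and values with treatment in the fit are given below.

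The expression of 45 of 16732 tested genes was higher in Csn2-high tumors (0.269% of those tested) and that of 0 genes was lower (0.0%), at an adjusted p under 0.05 (limma, Benjamini-Hochberg adjustment over all tested genes). At an unadjusted p under 0.05, 709 genes (4.24%) were higher and 275 lower, and the smallest adjusted p among the lower genes was 0.17. The 45 genes had log2 differences of 0.70 to 6.17 with a median of 2.14, where the median of all tested genes was 0.00. The 6 with the smallest adjusted p were Csn1s1, Csn3, Elf5, Prlr, Lalba and Csn1s2a. Of the 45 genes, 21 belong to a gene list described below and 24 to none. Of the 45, 5 passed the filter on low values only through the Csn2-high tumors, with a mean under 0.5 RPKM over the other 38 tumors: Atp6v1b1, Col9a1, Muc15, Slc28a3 and Slc7a10. Their groups had to differ for them to be tested, so their calls are descriptions. In bulk tumor tissue, a lower level cannot be told apart as fewer cells of a type or as less RNA per cell. Differences are on the log2(RPKM + 0.5) scale, which understates the change of genes near 0. The count of called genes depended on the fit: it was 13 with treatment as a covariate, and 12 without the glargine tumors (6 Csn2-high against 11 Csn2-low).

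Of the 8 caseins and whey proteins, 6 passed the filter on low values with Csn2 set aside, and 4 of these rose. The median log2 difference of the 6 was 3.53. Csn1s1 (alpha-S1-casein, chromosome 5, 87666208 to 87682578, plus strand) ran from 12.0 to 206 RPKM in the Csn2-high tumors, with a median of 40.0, and from 0.035 to 0.29 in the Csn2-low tumors, with a median of 0.138. Every Csn2-high tumor stood above every Csn2-low tumor, and the log2 difference was 6.17 (SE 0.36, adjusted p = 3.7e-11, limma). The 2 promoters with a match printed above, Csn2 and Csn1s1, belong to neighbours in the cluster.

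Csn3 (kappa-casein, which coats the casein micelle, chromosome 5, 87925579 to 87932665, plus strand) ran from 18.7 to 241 RPKM in Csn2-high tumors, with a median of 59.9, against 0.229 to 16.8 in Csn2-low tumors, with a median of 0.802. The groups did not overlap, but the Csn2-low tumors X10_95 at 16.8 RPKM and insulin_18 at 10.0 had over 10 RPKM of Csn3 beside 0.127 and 0.148 of Csn1s1. The log2 difference was 4.98 (SE 0.56, adjusted p = 2.2e-05).

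Csn1s2a (alpha-S2-like casein A, chromosome 5, 87774567 to 87788797, plus strand) ran from 0.272 to 192 RPKM in Csn2-high tumors, with a median of 9.40, and from 0 to 0.272 in Csn2-low tumors, with a median of 0.076. The groups met at a single value, since glargine_63, with 36.6 RPKM of Csn2, had as little Csn1s2a as the low tumor glargine_73. The log2 difference was 4.35 (SE 0.61, adjusted p = 0.00052). Lalba (chromosome 15, 98480400 to 98482721, minus strand) ran from 0.559 to 29.8 RPKM in Csn2-high tumors, with a median of 4.00, against 0.082 to 1.41 in Csn2-low tumors, with a median of 0.253. Here too glargine_63 was the lowest Csn2-high tumor, and the low tumor IGF1_128 was above it. The log2 difference was 2.70 (SE 0.38, adjusted p = 0.00045).

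The other milk proteins of this list did not pass the test. Wap, whose promoter drives the Cre of this model, had a median of 0.472 RPKM in Csn2-high tumors and of 0.018 in Csn2-low tumors, and its log2 difference was 1.10 (SE 0.44, adjusted p = 0.69). Over the 49 ranked tumors with Csn2 as the predictor Wap was called, with a slope of 0.24 per log2 unit of Csn2 (SE 0.04, adjusted p = 0.00047). Wap passed the filter on low values only through the Csn2-high tumors (mean 2.51 RPKM, against 0.0983 in the other 38), so this call is a description. Its level was set by few tumors, glargine_78 at 23.5 RPKM and IGF1_145 at 2.56, while insulin_21 was at 0 and the low tumor insulin_14 reached 1.13. Glycam1, a mucin-like whey protein that is also made in the high endothelial venules of lymph nodes, had medians of 1.00 and 0.080 RPKM and a log2 difference of 1.62 (SE 0.57, adjusted p = 0.56). Csn1s2b (alpha-S2-like casein B) was under the filter, at no more than 0.247 RPKM in any tumor of either group.

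The Csn2-high tumors were not ordered alike by the different milk genes. Glargine_78 was the highest for Csn2, Csn1s1, Csn1s2a, Lalba, Wap and Glycam1 among them, but vehicle_182 had the most Csn3, 241 RPKM beside 24.8 of Csn2. Glargine_69, the lowest Csn2-high tumor, had 141 RPKM of Csn1s1 and 213 of Csn3. By medians per length over the 12 tumors, Csn3 was the most abundant casein at 59.9 RPKM, followed by Csn1s1 at 40.0, Csn2 at 30.7 and Csn1s2a at 9.40, and the ranges of these 4 overlapped widely.

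**Figure D2:**
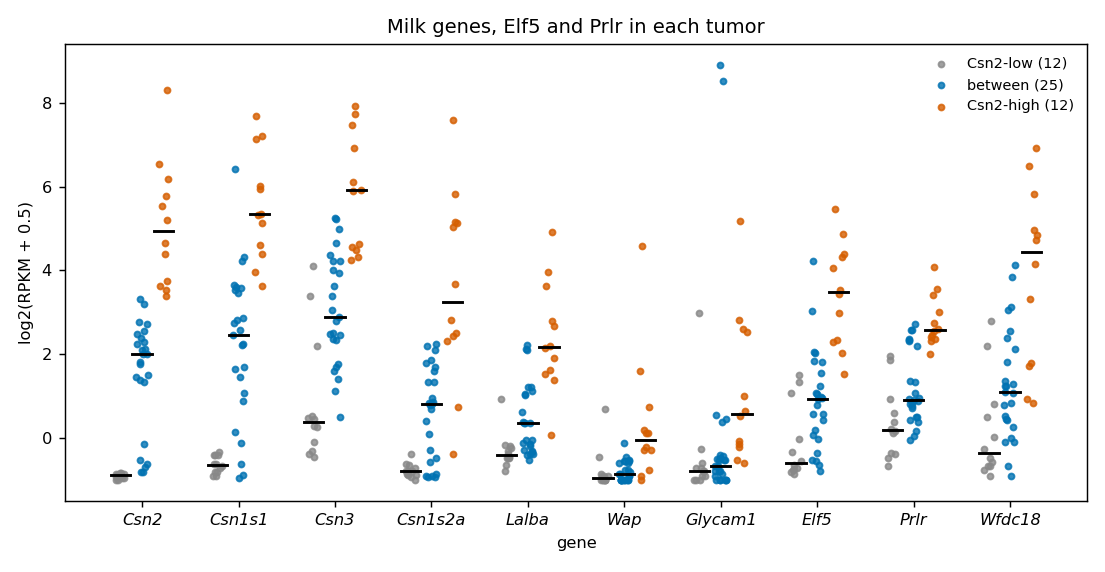
Level of each gene, as log2(RPKM + 0.5), in each Csn2-low (grey), intermediate (blue) and Csn2-high (orange) tumor, with bars at the medians. Csn1s1, Csn3, Elf5 and Prlr show no overlap of grey and orange points, whereas Wap and Glycam1 overlap and the highest Glycam1 points are intermediate tumors.

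Of the 19 tested genes of the prolactin and STAT5 pathway, 2 rose and the others did not pass the test, and the median log2 difference of the list was -0.03. Both that rose act at the ends of the pathway. Elf5, an ETS-family factor of alveolar luminal progenitors (chromosome 2, 103411688 to 103450989, plus strand), ran from 2.38 to 43.8 RPKM in Csn2-high tumors, with a median of 10.7, against 0.052 to 2.35 in Csn2-low tumors, with a median of 0.166. The groups did not overlap, although the highest low tumor, vehicle_161, and the lowest high tumor, insulin_21, almost touched. The log2 difference was 3.56 (SE 0.41, adjusted p = 3.0e-05). Prlr, the prolactin receptor, ran from 3.53 to 16.4 RPKM with a median of 5.48 in Csn2-high tumors, and from 0.129 to 3.36 with a median of 0.643 in Csn2-low tumors. Again the groups did not overlap, and the log2 difference was 2.43 (SE 0.29, adjusted p = 3.7e-05).

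The genes that carry the signal between these 2 had small differences that did not pass the test. Stat5a had a log2 difference of 0.34 (SE 0.15, adjusted p = 0.75) and Stat5b of 0.31 (SE 0.13, adjusted p = 0.75). Jak2, the kinase bound to the prolactin receptor, had one of -0.07 (SE 0.13) and Nr3c1, the glucocorticoid receptor, one of 0.21 (SE 0.18). Cish and Socs2, feedback inhibitors that STAT5 induces, had log2 differences of -0.53 and -0.03. RNA levels do not show the activity of these proteins.

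Of 13 other secreted milk proteins tested, 1 rose: Wfdc18, a small secreted protein of the whey acidic protein family, with 1.27 to 121 RPKM in Csn2-high tumors (median 21.7) and 0.037 to 6.44 in Csn2-low tumors (median 0.281). Its log2 difference was 3.70 (SE 0.66, adjusted p = 0.0072). This call was lost with treatment as a covariate (3.13, SE 0.66, adjusted p = 0.10) and without the glargine tumors (2.38, SE 0.76, adjusted p = 1.00). Lcn2, the iron-siderophore carrier lipocalin 2, had a log2 difference of 3.45 and Ltf, lactoferrin, one of 2.25, but neither passed (adjusted p = 0.26 and 0.50). Both were called over the 49 ranked tumors with Csn2 as the predictor (slopes 0.60 and 0.43, adjusted p = 0.010 and 0.013). Pigr, of the same list, was called there too (slope 0.24, adjusted p = 0.0036). With 8 tumors per group Lcn2 and Pigr were called (adjusted p = 0.038 and 0.034).

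Of 12 tested genes of the milk fat globule and lipid droplet, 4 rose, and the median log2 difference of the list was 0.72. Muc15, a mucin of the globule membrane, had a median of 1.84 RPKM in Csn2-high tumors and 0.045 in Csn2-low tumors, a log2 difference of 2.32 (SE 0.35, adjusted p = 0.00094). Btn1a1 (butyrophilin, needed for the release of milk fat droplets) had medians of 1.98 and 0.333 RPKM and a log2 difference of 1.57 (SE 0.30, adjusted p = 0.014). Folr1, the folate receptor that is also secreted into milk, differed by 1.40 (SE 0.24, adjusted p = 0.0046). Cd36, a fatty acid translocase of the globule membrane and of fat cells alike, differed by 1.89 (SE 0.34, adjusted p = 0.0072). Muc15 passed the filter on low values only through the Csn2-high tumors (mean 3.59 RPKM, against 0.435 in the other 38), so its call is a description. The other 3 calls were lost with treatment as a covariate and without the glargine tumors, while Muc15 differed by 2.01 and 1.75 in these fits. With treatment in the fit Btn1a1 differed by 1.61, Folr1 by 1.12 and Cd36 by 1.86 (adjusted p = 0.11, 0.19 and 0.11). With adipocyte and muscle scores 0 of the 12 were called, Muc15 differing by 1.94, Btn1a1 by 1.42, Folr1 by 1.30 and Cd36 by 0.50.

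The enzymes that make the fat and sugar of milk contributed 1 call. Of 21 tested genes of fatty acid and triglyceride synthesis 1 rose, Thrsp (Spot14, a regulator of lipogenesis in mammary gland and fat), with 0.329 to 11.6 RPKM against 0.016 to 0.227. Its groups did not overlap, and the log2 difference was 1.83 (SE 0.36, adjusted p = 0.015). The call was lost with treatment as a covariate (1.33, adjusted p = 0.38) and with adipocyte and muscle scores (2.22, adjusted p = 0.27), and held without the glargine tumors (1.01, adjusted p = 0.0035). Fasn and Acaca, the central enzymes of fatty acid synthesis, had log2 differences of 0.07 and 0.12. Of 13 tested genes of lactose synthesis and milk ion transport 0 were called, with 2 at an unadjusted p under 0.05, and B4galt1, the catalytic subunit of lactose synthase, had a log2 difference of -0.05 (SE 0.14). The glucose transporter Slc2a1 had medians of 80.04 RPKM in Csn2-high and 182.4 in Csn2-low tumors, with overlapping ranges and an adjusted p of 0.78.

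Among the genes of luminal progenitor and alveolar cells, 2 of 12 rose. One was Elf5, and the other was Ehf, a related epithelial ETS factor, with a median of 13.9 RPKM in Csn2-high tumors and 0.994 in Csn2-low tumors and a log2 difference of 2.87 (SE 0.59, adjusted p = 0.025). The call of Ehf was lost with treatment as a covariate (2.47, adjusted p = 0.11), without the glargine tumors (2.00, adjusted p = 1.00) and with adipocyte and muscle scores (4.09, adjusted p = 0.12). Kit and Aldh1a3, further markers of luminal progenitors, had log2 differences of 0.75 and 0.83 that did not pass. Of 8 tested hormone-sensing luminal genes 0 were called, with 1 at an unadjusted p under 0.05.

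Markers of epithelial and mesenchymal state did not pass the test between the groups. Of 18 genes of epithelial keratins and junctions 0 were called, with 7 at an unadjusted p under 0.05, 16 were higher, and their median log2 difference was 0.98. Krt19 differed by 2.66 (SE 0.84, adjusted p = 0.41), Epcam, an epithelial adhesion molecule, by 1.86 (SE 0.77), Krt7 by 1.82 (SE 1.09) and Cdh1 (E-cadherin) by 0.17 (SE 0.55). Krt8, one of the 2 that were lower, had a log2 difference of -0.38 (SE 0.78) and medians of 136.4 RPKM in Csn2-high and 221 in Csn2-low tumors. The tumor with the most Krt8 (1616 RPKM) and Cdh1 (106 RPKM) of the 24 was vehicle_174, a Csn2-low tumor. In the 25 tumors between the groups, 18 of the 18 epithelial genes had a slope on Csn2 above 0 (median 0.41), against 54.5% of all tested genes. There 8 had an unadjusted p under 0.05, against 6.51% of all tested genes. Krt19 was called over the 49 ranked tumors with Csn2 as the predictor (slope 0.47, adjusted p = 0.045). With 8 tumors per group Krt19, Cldn7 and Rab25 were called (adjusted p = 0.031, 0.038 and 0.040). Of 17 EMT genes 0 were called, with 0 at an unadjusted p under 0.05, and Vim (vimentin) had medians of 4015 and 3916 RPKM. Of 17 basal and myoepithelial genes 1 rose, Krt5, at 0.836 to 4.49 RPKM against 0 to 2.61, with a log2 difference of 1.69 (SE 0.32, adjusted p = 0.012). It held with treatment as a covariate (1.97, adjusted p = 0.015) and was lost without the glargine tumors (1.93, adjusted p = 0.12) and with adipocyte and muscle scores (1.48, adjusted p = 0.70).

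**Figure D3:**
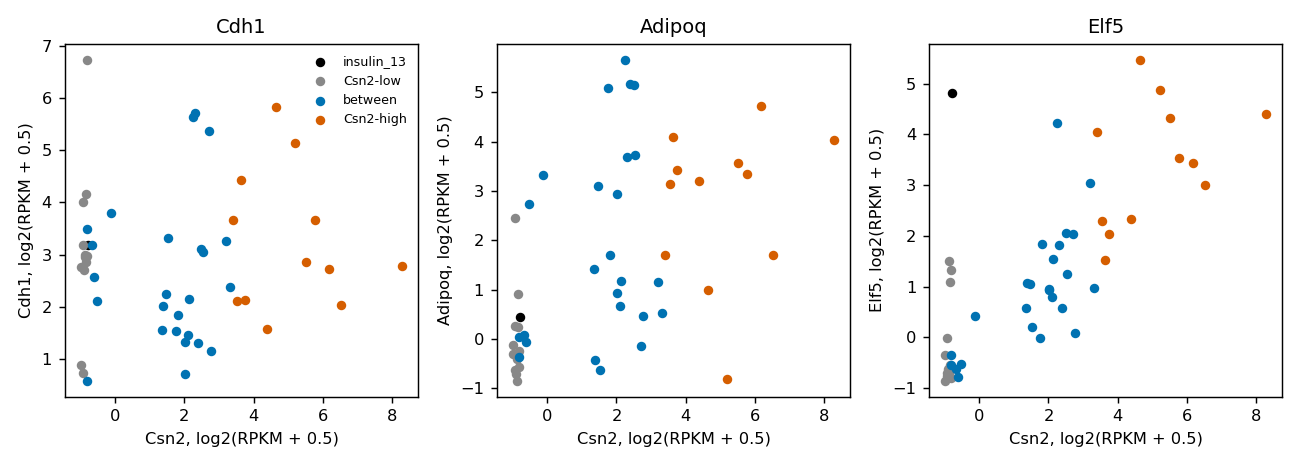
Cdh1, Adipoq and Elf5 against Csn2 in each of the 50 tumors, all as log2(RPKM + 0.5). Cdh1 overlaps between the groups, with the Csn2-low tumor vehicle_174 as the highest point, Adipoq is above the low tumors in most but not all Csn2-high tumors, and insulin_13 has high Elf5 at low Csn2.

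Genes of fat cells were higher in the Csn2-high tumors. Of 12 tested adipocyte genes 7 rose, the second list after the milk proteins by its median log2 difference (1.67). With treatment as a covariate the median was 1.55 and 0 of the 12 were called, and without the glargine tumors it was 1.62 and 4 were called. In the 25 tumors between the groups, 11 of the 12 had a slope on Csn2 above 0 (median 0.29), against 54.5% of all tested genes. Only 1 of the 12 had an unadjusted p under 0.05 there, where 6.51% of all tested genes did. Adipoq, the fat cell hormone adiponectin, ran from 0.066 to 26.0 RPKM in Csn2-high tumors with a median of 9.15, and from 0.055 to 4.95 in Csn2-low tumors with a median of 0.323. The ranges overlapped, with glargine_63 at 0.066 among the Csn2-high and IGF1_135 at 4.95 among the Csn2-low tumors, and the log2 difference was 2.76 (SE 0.49, adjusted p = 0.0072). Cfd (adipsin, log2 difference 2.96), Cidec (a lipid droplet protein, 2.29) and Plin4 (a perilipin, 2.14) rose likewise, with adjusted p-values of 0.012, 0.013 and 0.011. With treatment in the fit Adipoq differed by 2.72 (adjusted p = 0.11), Cfd by 3.02 (0.14), Cidec by 2.27 (0.19) and Plin4 by 2.18 (0.11). The summed level of the adipocyte list was 63.4 to 392 RPKM in Csn2-high and 34.7 to 123 in Csn2-low tumors. Thrsp, Cd36 and Gpd1 are used by fat cells as well as by milk-secreting cells. With adipocyte and skeletal muscle scores as covariates, 12 genes were called, 9 of which were among the 45. Csn1s1 (log2 difference 6.48, adjusted p = 8.2e-07), Elf5 (4.53, adjusted p = 0.0024), Prlr (2.84, adjusted p = 0.0088) and Csn3 (5.23, adjusted p = 0.024) were among them, whereas Csn1s2a (3.48, SE 0.83, adjusted p = 0.22) and Lalba (1.65, SE 0.47, adjusted p = 0.39) lost their call, and the median of the 6 caseins and whey proteins was 2.81. The part of fat tissue in the other differences was not tested beyond this.

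Skeletal muscle and B and plasma cell genes were mostly at higher levels in Csn2-high tumors, without a call. Of 14 muscle genes 14 were higher, 0 were called and 1 had an unadjusted p under 0.05, with a median log2 difference of 1.18 and a summed level of 7.87 to 8110 RPKM against 8.83 to 2912. This direction was not stable: without the glargine tumors the median was -0.20, and in the 25 tumors between the groups 0 of 14 muscle genes had a slope on Csn2 above 0 (median -0.33). Of 11 B and plasma cell genes 0 were called and 8 had an unadjusted p under 0.05, with a summed level of 11.0 to 144 RPKM in Csn2-high and 2.29 to 65.6 in Csn2-low tumors. In the 25 tumors between, 0 of these 11 had a slope above 0 (median -0.21). The defining B cell marker Ms4a1 (CD20) differed by 0.32 and Igha, the constant region of immunoglobulin A, by 2.14 (adjusted p = 0.12). Of the 45 called genes 2 were immunoglobulin segments, Igkj2 and Ighv1-72, whose reads can be shared with near-identical segments, and these had slopes of -0.41 and -0.61 in the tumors between. With the B and plasma cell score as a covariate 11 genes were called, all of them among the 45, and they included Csn1s1, Csn3, Csn1s2a, Lalba, Elf5 and Prlr.

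In the other lists 0 genes were called. These were T and NK cells (6 of 12 at an unadjusted p under 0.05), macrophages (0 of 12), neutrophils (0 of 8), endothelium (0 of 12), fibroblasts and collagens (0 of 15), proliferation (0 of 18), receptors, ligands and binding proteins of insulin and IGF (4 of 14), involution and STAT3 (3 of 13) and the unfolded protein response (0 of 15). Of 18 genes of hypoxia and glycolysis, 17 were lower in Csn2-high tumors, with 5 at an unadjusted p under 0.05 and a median log2 difference of -0.38. Egln3, an oxygen-sensing hydroxylase, was at 8.07 RPKM in the median Csn2-high tumor and 13.9 in the median Csn2-low tumor (log2 difference -0.99, SE 0.28, adjusted p = 0.26). Hspa5, a chaperone of the secretory pathway, had medians of 1325 and 1323 RPKM.

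**Figure D4:**
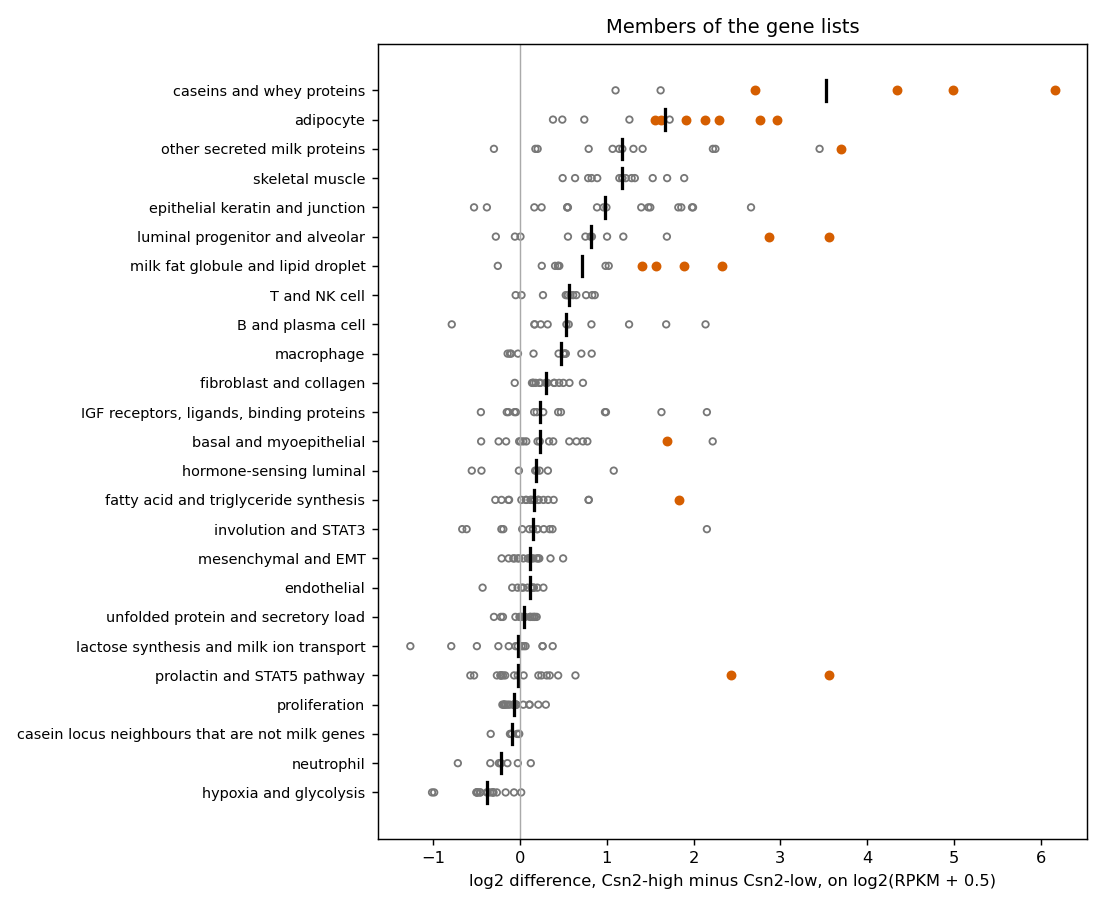
Log2 difference, Csn2-high minus Csn2-low, of each tested member of the gene lists (points), with filled orange points for genes at an adjusted p under 0.05 and bars at each list's median. The caseins and whey proteins have the highest median (3.53), adipocyte genes follow (1.67), and hypoxia and glycolysis has the lowest (-0.38).

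Beyond the lists, the genes with the smallest adjusted p-values were 3 genes of other functions. Apoc1, apolipoprotein C1, had medians of 4.57 RPKM in Csn2-high and 0.548 in Csn2-low tumors (log2 difference 1.97, SE 0.29, adjusted p = 0.00070). Atp6v1b1, a subunit of the proton pump that acidifies vesicles, had medians of 2.18 and 0.0495 RPKM (2.47, SE 0.36, adjusted p = 0.00074). Slc28a3, a sodium-driven nucleoside transporter, had medians of 1.78 and 0.176 RPKM (1.79, SE 0.27, adjusted p = 0.0011). These 3 were called with treatment as a covariate. Without the glargine tumors they differed by 1.72, 2.26 and 1.13 and were not called (adjusted p = 0.078, 0.077 and 0.095). With adipocyte and muscle scores Atp6v1b1 alone was called (3.00, adjusted p = 0.035). Apoc1 differed by 1.21 and Slc28a3 by 2.09 in that fit (adjusted p = 0.47 and 0.092). The groups did not overlap for Atp6v1b1 and Slc28a3. Over all tested genes this held for 7 (0.0418%): these 2, which passed the filter only through the Csn2-high tumors, and Csn1s1, Csn3, Elf5, Prlr and Thrsp. For 0 genes did every Csn2-low tumor stand above every Csn2-high tumor.

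Among the genes around the caseins on chromosome 5 there was no call. Of 18 neighbours that are not milk genes 7 passed the filter on low values, 0 were called, 0 had an unadjusted p under 0.05, and their log2 differences ran from -0.34 to -0.01. Odam, which lies between Csn1s2b and Csn3 (87885029 to 87894174), had a median of 0.0315 RPKM in Csn2-high and 0.027 in Csn2-low tumors. Grsf1, an RNA-binding protein gene farther along (88659448 to 88676171), had medians of 97.5 and 109 RPKM.

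The 25 tumors between the groups were not used in the comparison and gave a second view of the same genes. There the slope of each gene's log2(RPKM + 0.5) on that of Csn2 was tested, and 2 genes passed (0.012% of 16732), both caseins. Csn1s1 had a slope of 1.17 per log2 unit of Csn2 (SE 0.14, adjusted p = 0.00016) and Csn1s2a one of 0.68 (SE 0.10, adjusted p = 0.0020). Csn3 (0.66, SE 0.15, adjusted p = 0.44), Elf5 (0.62, SE 0.13, adjusted p = 0.25) and Prlr (0.37, SE 0.11, adjusted p = 0.75) had slopes above 0 that did not pass. Of the 45 genes called between the extremes, 43 had a slope above 0, against 54.5% of all tested genes, and 20 had an unadjusted p under 0.05, against 6.51%. Of these 25 tumors 6 were under 1 RPKM of Csn2, and without them 0 genes were called with 409 at an unadjusted p under 0.05. The slopes of Csn1s1 and Csn1s2a among the 19 remaining tumors were 1.15 (SE 0.41) and 0.60 (SE 0.30).

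**Figure D5:**
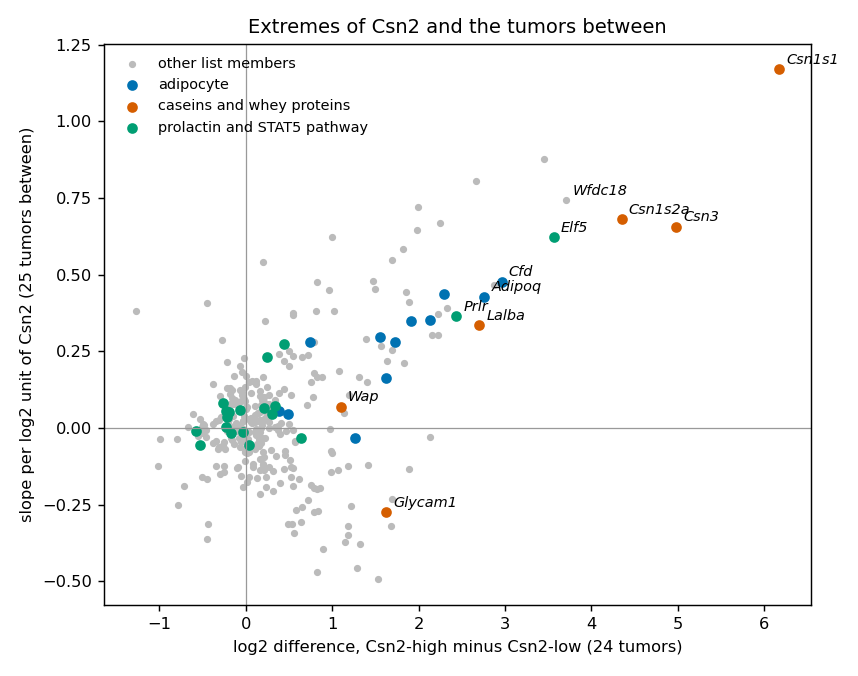
For each tested list member, the log2 difference between Csn2-high and Csn2-low tumors (24 tumors) against its slope on Csn2 in the 25 tumors between. The caseins, Lalba, Elf5, Prlr and Wfdc18 lie to the upper right, Glycam1 has a difference above 0 and a slope below 0, and most members of the prolactin and STAT5 pathway lie near the origin.

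Over all 49 ranked tumors, the genes most like Csn2 by Pearson's r of log2(RPKM + 0.5) were Csn1s1 (0.93), Csn1s2a (0.90), Elf5 (0.83), Lalba (0.83) and Csn3 (0.83). These points share their tumors and libraries with the comparison above, so the values describe the same pattern. The tumor left out of the ranking departed from it: insulin_13 had 27.9 RPKM of Elf5, 160.5 of Wfdc18 and 4.61 of Prlr beside 0.080 of Csn2 and 0.184 of Csn1s1.

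By their medians per treatment, the milk genes were highest in the glargine tumors, without passing the test. By its mean, Glycam1 was higher in insulin (48.3 RPKM) and X10 tumors (36.8) than in glargine tumors (5.55). Csn2 ran from 0.018 to 316 RPKM over the 10 glargine tumors with a median of 23.4, and from 0 to 24.8 over the 10 vehicle tumors with a median of 1.55. The ranges overlapped. Csn1s1, with medians of 37.4 RPKM in glargine and 1.66 in vehicle tumors, had a log2 difference of 3.13 (SE 1.00, unadjusted p = 0.0031, adjusted p = 0.78, limma over 50 tumors). With Csn2 set aside, 6 milk genes were tested in the comparisons of insulin, glargine, X10 and IGF1 with vehicle: 0 were called, and 5 had an unadjusted p under 0.05, all of them for glargine. The share of all tested genes at that threshold was not counted. The milk genes vary together, so the 5 are not separate signs of a difference. Among them, Wap averaged 2.67 RPKM in glargine tumors and no more than 0.310 in any other treatment. It passed the filter on low values only through the glargine tumors, so its difference is a description. For glargine 0 genes of any kind were called (0.0%), for insulin likewise 0 (0.0%), for X10 11 genes were lower (0.0657%) and for IGF1 1 was higher (0.00598%). The median Csn2 level was 0.116 RPKM in insulin, 4.03 in X10 and 2.54 in IGF1 tumors.

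With treatment as a covariate, the 13 genes called were all among the 45. Csn1s1 differed by 5.68 (SE 0.33, adjusted p = 1.2e-09), Elf5 by 3.26 (SE 0.37, adjusted p = 0.00012), Prlr by 2.29 (SE 0.30, adjusted p = 0.00070) and Csn3 by 4.67 (SE 0.66, adjusted p = 0.0020), and Csn1s2a and Lalba kept their calls, whereas of the 7 called adipocyte genes 0 did. Without the glargine tumors Csn1s1 (5.27), Csn3 (4.33), Csn1s2a (3.66), Lalba (2.29), Prlr (2.28) and Elf5 (2.85) were called, as were 4 of 12 adipocyte genes.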

How the data were processed

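RNA of 50 MG tumors was sequenced after poly-A selection on an Ion Torrent platform. The authors aligned reads to GRCm38 with TopHat2 (2.0.10) and Bowtie2 and counted them per gene with HTSeq (0.6.1), and the deposited values are RPKM, read counts normalized by the authors to library size and gene length (DEXSeq is the tool named for this table), with 1 column per tumor. RPKM are not counts, so no count test was run here. Relative library sizes were recovered from the steps between low RPKM values, where at least 96.3% of low values were whole reads, and were read as 26.5 to 49.1 M reads (median 40.9) because the step lengths then match annotated exon lengths (median ratio 0.999). Read numbers cover counting error only.

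Tumors were ranked by Csn2 with insulin_13 left out. Genes with a mean of at least 0.5 RPKM over 50 tumors were tested on log2(RPKM + 0.5) with limma (3.58.1, R 4.3.3) with an intensity trend, and p-values were adjusted after Benjamini and Hochberg over 16732 genes, Csn2 set aside. SE is the moderated standard error. Scores were mean z-values of a list. A simulation of the comparison over 16733 genes drew normal values, independently for each gene, from its mean and its spread within the groups. In it 76% of the genes given a log2 change of 1 and 96% of the genes given one of 2 were called, beside 7 unchanged genes. Skewed values and genes that vary together were not simulated, so these shares need not hold for the tumors. GENCODE M21 gave coordinates. The members, gene lists (25, with 366 of 368 entries matched) and tests were chosen with earlier results of these data known. Named were Csn2, all measured caseins and whey proteins, up to 4 called genes of each list with the largest difference or otherwise up to 2 with the highest mean, the 10 protein-coding genes with the smallest adjusted p, the 5 most like Csn2 and the neighbours of the caseins. Further members named for their textbook role (Stat5a, Stat5b, Jak2, Nr3c1, Cish, Socs2, Lcn2, Ltf, Fasn, Acaca, Kit, Aldh1a3, Cdh1, Krt19, Epcam, Ms4a1, Egln3) and insulin_13's values were chosen after values were seen. Cldn7, Rab25 and Pigr were also named after values were seen. Alternatives changed the pseudocount, filter, scaling, covariates, group size and tumors included.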

Additional observations from a re-analysis of the deposited data

Results flagged for a closer look

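Within each treatment of 10 tumors, 35 combinations of a milk gene and a treatment were checked for a tumor standing apart from the other 9 by Dixon's criterion, and 9 did, where chance gives about 1 in 20 for normally distributed values. Wap and Glycam1, with 8 of the 9, were near 0 in most tumors, and the chance rate for such values was not tested. IGF1_145, a Csn2-high tumor, stood apart in 3 of them, with 32.5 RPKM of Csn1s2a (next IGF1 tumor 4.22), 2.56 of Wap (next 0.236) and 1.52 of Glycam1 (next 0.256). Wap also stood apart in the Csn2-high tumors glargine_78 (23.5 RPKM, next 1.16) and vehicle_182 (0.581, next 0.236), and in the Csn2-low tumor insulin_14 (1.13, next 0.181). Glycam1 stood apart in the Csn2-low tumor vehicle_197 (7.44 RPKM, next 0.944), and in 2 tumors between the groups, insulin_8 (480.1, next 0.976) and X10_105 (366.9, next 0.368). These 2 tumors had the highest Cd79a of the 50, 49.3 and 84.5 RPKM, beside 17.9 and 28.9 RPKM of the B cell marker Ms4a1. What these levels of Glycam1 and of B cell genes have to do with each other was not tested.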

How the results depend on the processing

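The count of 45 called genes moved by over 1.5 times to 17 with a mean of at least 5 RPKM, to 29 after quantile normalization, to 13 with treatment as a covariate, to 12 with adipocyte and muscle scores, and, in fits chosen after seeing the data, to 12 without the glargine tumors, 28 with library size and 11 with the B and plasma cell score. Leaving out 1 of the 24 tumors at a time gave 32 to 66, the highest without vehicle_174 (65 higher, 1 lower). Of the caseins and whey proteins 4 were called, and this count fell to 2 with adipocyte and muscle scores. It stayed at 4 to 4 without any 1 tumor. It was 5 over 49 tumors with Csn2 as the predictor. The added gene of this list was Wap, which passed the filter only through the Csn2-high tumors. The 2 genes called in the tumors between became 7 with a pseudocount of 0.1 and 0 without the 6 tumors under 1 RPKM, a fit also chosen after seeing the data. Of the named genes, 3 turned direction, all with adipocyte and muscle scores: Plin1 to -0.19, Trarg1 to -0.037 and Sncg to -0.022. The cause of these shifts was not tested. Csn1s1, Csn3, Elf5 and Prlr kept their call in each of the up to 41 alternatives in which they were tested, with highest adjusted p-values of 8.2e-07, 0.024, 0.042 and 0.022. Counts of treatment calls among milk genes stayed at 0. No paired analysis was possible because the numbers in the tumor names are not shared between groups. At 26.5 M reads or more, levels under about 0.1 RPKM of Csn2 rest on a few reads.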

Other observations

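Outside the milk and fat genes, subunits of a minor cartilage collagen were among the genes higher in Csn2-high tumors: Col9a2 (log2 difference 2.49, SE 0.49, adjusted p = 0.015) and Col9a1 (2.16, SE 0.48, adjusted p = 0.048). With adipocyte and muscle scores in the fit, Col9a3 (3.30, adjusted p = 0.018) joined them. So did the related transcription factors Sox10 (4.05, adjusted p = 0.030) and Sox8 (2.85, adjusted p = 0.030). None of Col9a3, Sox10 and Sox8 was called in the comparison without covariates. Over the 49 ranked tumors, also without the scores, Sox10 (slope 0.34, adjusted p = 0.0078) and Col9a3 (0.26, adjusted p = 0.047) were called and Sox8 was not. With treatment as a covariate none of these 5 was called, and without the glargine tumors Col9a2 (2.06, adjusted p = 0.79) and Col9a1 (1.63, adjusted p = 1.00) were not called either. Col9a1 lost its call in 27 of 40 alternatives, and it passed the filter on low values only through the Csn2-high tumors. Sox9, another Sox gene, differed by 0.006 (SE 0.25) in the comparison without covariates. All these genes were named after their values were seen.

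With the epithelial score in the fit, some genes were called lower in Csn2-high tumors. There 53 genes were higher and 10 lower, and the lower genes included Il1a (interleukin 1 alpha, log2 difference -1.51, SE 0.33, adjusted p = 0.036) and its natural receptor antagonist Il1rn (-0.91, SE 0.19, adjusted p = 0.024). They were named after their values were seen. In the same fit 8 of 12 adipocyte genes were higher.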
